A study of Mus musculus with 8 samples.

Results

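*Kitl*, *Kit*, *Mitf*, *Tyr*, *Tyrp1*, *Dct*, *Pmel*, *Mlana*, *Slc45a2* and *Oca2*, which are KIT ligand, its receptor and 8 genes of the melanocyte, are 10 of the 18193 genes measured in dorsal skin of hairless mice, read by 20 of 45037 probe sets. All probe sets whose annotation names exactly 1 of these 10 symbols were taken, and 0 further probe sets named a member beside another gene. The genes were chosen by the diet comparison itself, because 1 *Kitl* probe set ranked among its smallest p, so every difference between the diets below is a description of these arrays and is not tested. The arrays came from 21-week-old female Hos:HR-1 mice, a hairless strain, fed for 12 weeks from 9 weeks of age. The collagen group (4 arrays) ate AIN-93G, a purified rodent diet, with 2.0 g of fish scale collagen hydrolysate added to 100 g of it, and the control group (4 arrays) ate AIN-93G alone. Of 16 mice in all, 8 were on each diet, and the labels do not say which of them gave each array. The labels call the arrays of a diet biological replicates and do not give the coat colour or pigment genotype of the strain.

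Melanocytes are pigment cells that descend from the neural crest and, in haired mouse back skin, lie mainly in the hair follicles. KIT ligand, made by keratinocytes, fibroblasts and endothelial cells, binds the receptor tyrosine kinase KIT on melanocytes and on mast cells, and both cell types need this signal to survive. In melanocytes MITF, a basic helix-loop-helix transcription factor, drives the genes of melanin enzymes and of the melanosome, the organelle in which melanin is made. Whole skin was used, so fewer cells of a type and less RNA per cell cannot be told apart.

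The enzyme genes *Tyr*, *Tyrp1* and *Dct* share in their promoters a sequence known as the M-box, an E-box with flanking bases to which MITF binds. The 250 bases before the RefSeq transcription start of each (GRCm38.p6) are shown because correlations of these genes with *Mitf* and with each other are reported here. They lie at chr7:87493513-87493762 (minus strand) for *Tyr*, chr4:80833963-80834212 (plus strand) for *Tyrp1* and chr14:118052247-118052496 (minus strand) for *Dct*. They are written 5′ to 3′ on the strand of the gene, and the capitals mark the M-box core TCATGTGCT.
Tyr: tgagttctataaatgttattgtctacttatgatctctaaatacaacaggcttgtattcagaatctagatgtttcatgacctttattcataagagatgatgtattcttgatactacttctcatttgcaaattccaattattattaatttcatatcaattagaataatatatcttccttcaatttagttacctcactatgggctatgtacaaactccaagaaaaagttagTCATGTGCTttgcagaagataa
Tyrp1: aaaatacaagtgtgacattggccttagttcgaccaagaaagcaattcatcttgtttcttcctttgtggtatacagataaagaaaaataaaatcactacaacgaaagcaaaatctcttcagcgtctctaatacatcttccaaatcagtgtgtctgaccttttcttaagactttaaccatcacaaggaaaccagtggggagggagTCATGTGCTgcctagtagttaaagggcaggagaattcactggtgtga
Dct: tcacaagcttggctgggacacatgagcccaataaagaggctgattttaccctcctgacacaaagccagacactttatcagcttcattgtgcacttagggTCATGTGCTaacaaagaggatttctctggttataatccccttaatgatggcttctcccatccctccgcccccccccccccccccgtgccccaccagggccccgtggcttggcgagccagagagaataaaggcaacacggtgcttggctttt

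The core has its first base at position -22 from the start in *Tyr*, -47 in *Tyrp1* and -151 in *Dct*. Read on both strands of windows from 250 bases before to 50 after each start, it occurred in 0.408% of 32851 windows of the mouse RefSeq table. Of the members, 7 genes had a window, in 10 windows, and the core was in 3 of these genes. The shorter E-box CATGTG, which the core contains, was in 14.2% of all windows and in those of 4 member genes, *Tyr*, *Tyrp1*, *Dct* and *Oca2*. The E-box CACGTG was in 7.15% of all windows and in 0 of the 10 member windows. A match describes letters and is no measurement of binding.

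The deposited log2 values differed very little between arrays, with a median SD of 8.66e-06 over the 8 arrays of a probe set, and 37 probe sets above 0.1. Because their summarization is not stated in the labels, they give no fold change of RNA. Each difference is the collagen-diet mean minus the control-diet mean, divided by the pooled SD within diets of that probe set, or written in thousandths of a deposited log2 unit. The keratins of basal epidermis *Krt5* and *Krt14* had mean log2 values of 13.06 and 13.89, and *Col3a1*, a dermal collagen, 13.17. In limma's moderated test 0 of the 45037 probe sets had an adjusted p below 0.05, with 0.0867 as the smallest, and 2317 had an unadjusted p under that threshold. Collagen replicate 1 and control replicate 4 were lowest in skeletal muscle genes, with list scores of -1.38 and -1.34 against 0.14 to 0.90 in the other arrays.

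*Kitl* gave the largest difference of the 20 probe sets, in 1 of its 4 probe sets. Probe set 1426152_a_at read 6.5418, 6.5417, 6.5412 and 6.5419 on the collagen diet (replicates 1 to 4), against 6.5431, 6.5431, 6.5432 and 6.5435 on the control diet. The highest collagen-diet array was lower than the lowest control-diet array. The difference was -1.56 ± 0.179 thousandths of a log2 unit (SE, n = 4 per diet), or -5.81 SD. This is the value that chose the genes: its unadjusted p of 6.72e-05 in limma's moderated test ranked 10 of 45037, and its adjusted p was 0.303. It had an adjusted p of at least 0.229 under every alternative that held it, and 0.570 without the 2 arrays low in muscle genes, with a difference of -5.69 SD there.

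The other 3 *Kitl* probe sets had lower means on the collagen diet by less than 1 SD, with overlapping groups. Probe set 1415855_at read 9.1221, 9.1215, 9.1210 and 9.1221 on the collagen diet, against 9.1218, 9.1216, 9.1219 and 9.1228 on the control diet. Its highest array was control replicate 4 and its lowest collagen replicate 3, and the difference was -0.352 ± 0.366 thousandths (SE), or -0.64 SD. Probe set 1448117_at differed by -0.66 SD and 1415854_at by -0.96 SD. The annotation ties 1426152_a_at to another source sequence (M64262) than the other 3 (BB815530). *Kitl* is known to make membrane-bound and soluble forms by splicing, and which transcripts each probe set reads was not tested.

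**Figure D1:**
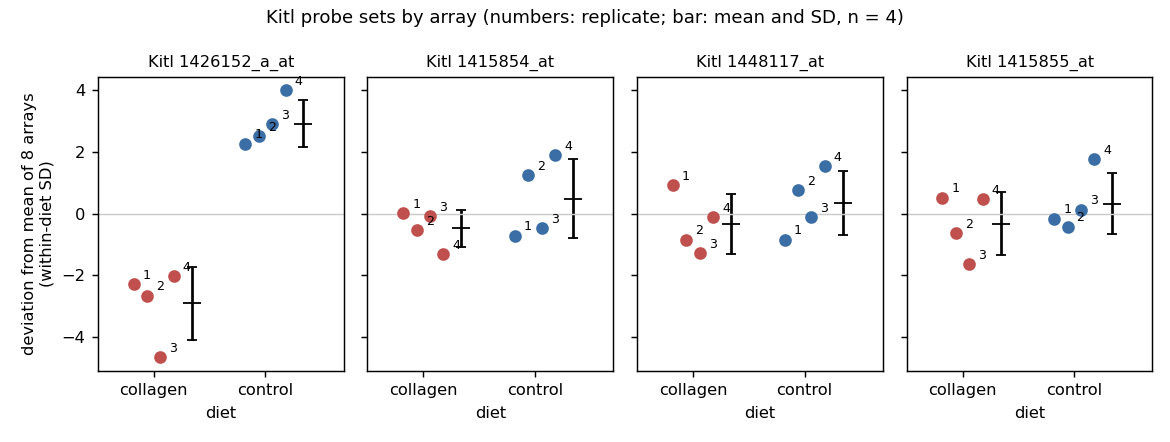
Deviation of each array from the mean of all 8 arrays, in within-diet SD (vertical axis), for the 4 Kitl probe sets, with collagen diet left of control diet, replicate numbers beside the points and bars for the mean and SD of 4 arrays. The diets do not overlap in 1426152_a_at (-5.81 SD between means) and overlap in the other 3 probe sets (-0.96 to -0.64 SD).

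The deviations from the diet means, which do not use the difference between diets, tied 1426152_a_at to 1415855_at. Pearson's r of their deviations was 0.93 over 8 arrays (exact permutation within diets, p = 0.00694, adjusted p = 0.0521 over 15 pairs of probe sets of 1 gene), and Spearman's rho was 0.93 (exact p = 0.0104, adjusted p = 0.0469). Without the 2 arrays farthest from the median of 1415855_at, r was 0.93. Within a diet these 2 probe sets ordered the arrays nearly alike, though not the same in either diet, while between diets they differed by -5.81 and -0.64 SD. For 1426152_a_at and 1448117_at r was 0.73 and rho 0.71 (exact permutation p = 0.0677 and 0.0781, adjusted p = 0.145 and 0.167). For 1426152_a_at and 1415854_at r was 0.14 and rho 0.36 (exact permutation p = 0.710 and 0.517, adjusted p = 0.710 and 0.597). Over all 8 arrays the genes most like 1426152_a_at among 25090 probe sets were *Tcf3* (1427764_a_at, r = 0.987), *Tbc1d15* (1416062_at, 0.987), *Fam107a* (1434202_a_at, 0.985), *Tbcd* (1452194_at, 0.984) and *Hira* (1450050_at, 0.980). Their differences were -6.81 to -3.97 SD, a direction fixed by choosing them for likeness to a probe set that splits by diet.

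*Kit*, the receptor, had overlapping groups in both probe sets, with values that turned on control replicate 4. Probe set 1452514_a_at read 7.9842, 7.9774, 7.9840 and 7.9858 on the collagen diet, against 7.9781, 7.9767, 7.9810 and 7.9907 on the control diet. Control replicate 4 was the highest and control replicate 2 the lowest array, so the control diet spanned the collagen diet. The difference was 1.27 ± 3.46 thousandths (SE, n = 4 per diet), or 0.25 SD. It was -0.07 SD without control replicate 2, 1.34 SD without control replicate 4 and 1.10 SD without the 2 arrays low in muscle genes. This probe set varied more over the 8 arrays than 99.3% of all probe sets. Its other probe set, 1415900_a_at, differed by 0.47 SD with overlapping groups, and control replicate 4 was highest there too, at 1.59 SD above the mean. Without that array all 4 collagen-diet arrays lay above the other 3 control-diet arrays, at 1.94 SD, and without the 2 arrays low in muscle genes the difference was 2.30 SD.

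Because mast cells carry KIT as well, *Kit* was set against mast cell markers and against the melanosome genes (*Tyr*, *Tyrp1*, *Dct*, *Pmel*, *Mlana*, *Slc45a2* and *Oca2*) within diets. A list's score in an array is the mean deviation of its genes, each in within-diet SD. The mast cell list had 16 of 18 genes with a probe set, led by *Tph1*, an enzyme of serotonin synthesis, at 1.01 SD, the tryptase gene *Tpsab1* at 0.47 SD and the receptor gene *Mrgprb1* at 0.45 SD. All 16 had a higher mean on the collagen diet with a median of 0.30 SD, against -0.04 SD over all genes, whereas 12 were higher after quantile normalization and 14 after median centring. Of the 16, 0 had an unadjusted p below 0.05, where 4.44% of all genes did. Their summed level was 123.534 to 123.582 on the collagen diet and 123.536 to 123.598 on the control diet, overlapping. Deviations of *Kit* 1452514_a_at and of the mast cell score had r = 0.89 (exact permutation p = 0.0243, adjusted p = 0.365 over 30 correlations with scores) and rho = 0.83 (exact p = 0.0382). This relation rested on control replicate 4 and collagen replicate 2, since without them r was 0.15, and without the 2 arrays low in muscle genes it was 0.65. Deviations of *Kit* and of the melanosome score had r = -0.26 and rho = -0.07, and r = -0.62 without control replicate 4 and collagen replicate 2. For *Kit* and endothelial markers r was 0.86 (exact permutation p = 0.0174, adjusted p = 0.365) and rho 0.79 (exact p = 0.0417), and r was 0.47 without control replicate 4 and collagen replicate 2.

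**Figure D2:**
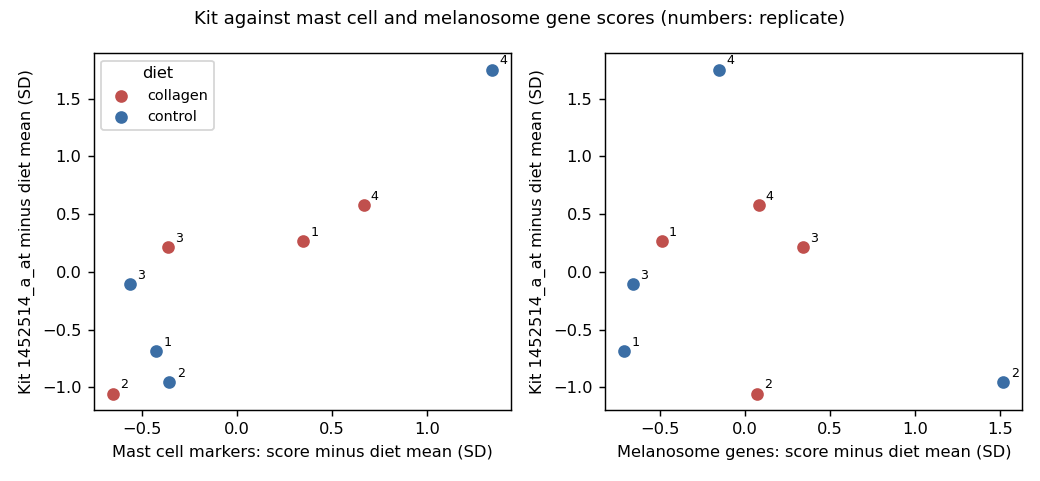
Kit 1452514_a_at (vertical axis, deviation from its diet mean in within-diet SD) against the score of mast cell markers (left) and of the 7 melanosome genes (right), both as deviations from the diet mean in SD, with 1 point per array, coloured by diet and numbered by replicate. Control replicate 4 lies highest for Kit and for mast cell markers (r = 0.89 over 8 arrays, 0.15 without it and collagen replicate 2), while for the melanosome genes r is -0.26 over 8 arrays and -0.62 without the same 2 arrays.

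*Mitf*, the transcription factor of the lineage, had lower means on the collagen diet in both probe sets by less than 1 SD, and higher means in both after quantile normalization. Probe set 1455214_at differed by -0.69 SD and by 0.10 SD after quantile normalization, and 1422025_at by -0.53 SD and by 0.31 SD. In 1455214_at collagen replicate 4 was 1.42 SD above the mean of all arrays, while the other 3 collagen-diet arrays lay 0.75 to 1.08 SD below it, and without that array the difference was -2.11 SD. The 2 probe sets ran against each other within diets (r = -0.75, exact permutation p = 0.0330, adjusted p = 0.0990, rho = -0.88, exact p = 0.0104, adjusted p = 0.0469), and r was -0.66 without collagen replicate 3 and control replicate 2.

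The melanin enzymes *Tyrp1* and *Dct* had higher means on the collagen diet in all 4 of their probe sets, under every alternative tried, with overlapping groups. *Tyrp1*, which acts late in eumelanin synthesis in mice, read 7.2039, 7.2042, 7.2043 and 7.2049 on the collagen diet in probe set 1415861_at, against 7.2035, 7.2053, 7.2026 and 7.2033 on the control diet. Control replicate 2 was the highest of all 8 arrays, and the other 3 control-diet arrays lay below all 4 collagen-diet arrays. The difference was 0.680 ± 0.581 thousandths (SE, n = 4 per diet), or 0.78 SD, and it was 2.79 SD without control replicate 2 (adjusted p = 0.885 in limma). The other *Tyrp1* probe sets, 1415862_at and 1439409_x_at, differed by 0.77 and 0.93 SD.

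*Dct*, dopachrome tautomerase, read 8.2616, 8.2611, 8.2619 and 8.2632 on the collagen diet, against 8.2606, 8.2622, 8.2609 and 8.2621 on the control diet. Collagen replicate 4 was the highest array and control replicate 1 the lowest, and the difference was 0.512 ± 0.574 thousandths (SE), or 0.60 SD, and 0.15 SD without collagen replicate 4. *Tyr*, tyrosinase, the rate-limiting enzyme of melanin synthesis, had no common direction over its 3 probe sets, at -0.24 SD (1417717_a_at), 0.37 SD (1448821_at) and -0.22 SD (1456095_at). Each of the 3 turned in direction under 2 to 5 of its alternatives. Control replicate 2 was the highest array in 1417717_a_at and 1456095_at, at 1.84 and 2.15 SD above the mean.

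Of the proteins that build the melanosome, *Pmel*, which forms its amyloid fibrils, read 7.3979, 7.3981, 7.3981 and 7.3982 on the collagen diet, against 7.3978, 7.3983, 7.3978 and 7.3980 on the control diet. Control replicates 1 and 3 were the lowest arrays and control replicate 2 the highest. The difference was 0.112 ± 0.124 thousandths (SE, n = 4 per diet), or 0.60 SD, and 1.56 SD without control replicate 2. *Mlana*, a small melanosomal membrane protein that binds PMEL, read 6.6751, 6.6756, 6.6757 and 6.6757 on the collagen diet, against 6.6751, 6.6764, 6.6753 and 6.6756 on the control diet. Its difference was -0.17 SD, and without control replicate 2, again the highest array, it was 0.73 SD.

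The melanosome transporters differed by even less on the deposited scale. *Slc45a2*, a melanosomal transporter whose loss dilutes pigment, had non-overlapping groups in probe set 1437430_at, with deviations of 1.77, 2.88, 0.24 and 0.36 SD on the collagen diet against -0.73, -1.37, -0.93 and -2.20 SD on the control diet. All 4 collagen-diet arrays were higher, by 2.62 SD or 0.0026 thousandths of a log2 unit, while median centring turned the difference to -0.13 SD and quantile normalization left 0.33 SD. This probe set varied more than 12.1% of all probe sets. The second *Slc45a2* probe set, 1451055_at, differed by 0.26 SD with overlapping groups and turned in direction under both scalings. *Oca2*, the chloride channel protein lost in pink-eyed dilution, differed by 0.83 SD with overlapping groups, and in the other direction after either scaling.

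Over the 20 probe sets, 11 had higher and 9 lower means on the collagen diet, with a median of 0.25 SD against -0.03 SD over all probe sets. The groups did not overlap in 2 of them, 1 lower (*Kitl* 1426152_a_at) and 1 higher (*Slc45a2* 1437430_at), where 3.12% of all probe sets did not overlap, 2.16% lower and 0.959% higher. The same 2 had an unadjusted p below 0.05, against 5.14% of all probe sets, 3.54% lower and 1.60% higher, and 0 had an adjusted p below 0.05, against 0.00%. The other 18 lay between -0.96 and 0.93 SD. Without control replicate 2, 5 had an unadjusted p below 0.05, against 4.92% of all probe sets: these 2, *Tyrp1* 1415861_at and 1439409_x_at (both 2.79 SD) and *Oca2* (2.29 SD). That was the highest count with a single array left out, where the range was 2 to 5. The count was 1 after quantile normalization and 1 after median centring. The shares over all probe sets were 51.8% lower as deposited, 63.2% after quantile normalization and 91.9% after median centring.

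**Figure D3:**
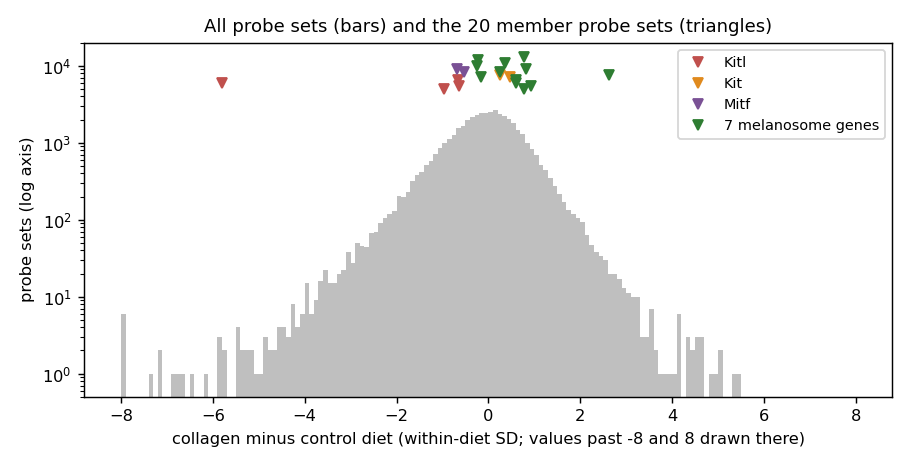
Number of probe sets (vertical axis, log scale) by difference, collagen minus control diet, in within-diet SD (horizontal axis), with triangles for the 20 member probe sets at heights that carry no value. Kitl 1426152_a_at lies at -5.81 SD and Slc45a2 1437430_at at 2.62 SD, and the other 18 lie between -0.96 and 0.93 SD.

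**Figure D4:**
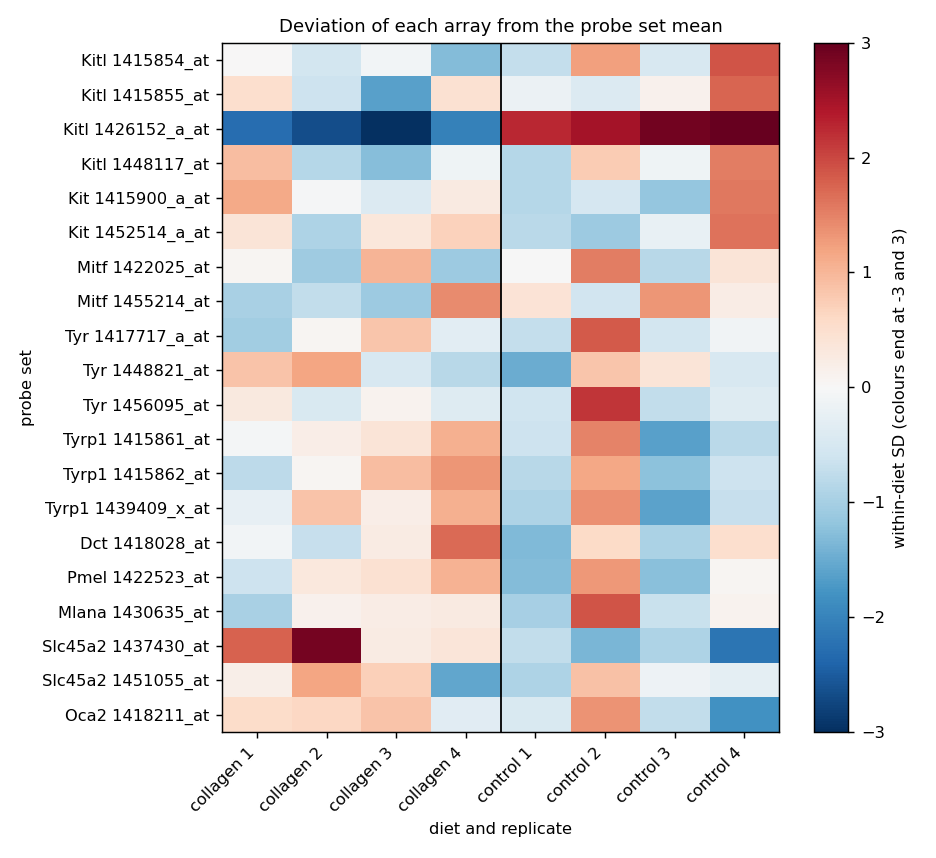
Deviation of each array (columns, collagen diet left of control diet) from the mean of its probe set (rows), in within-diet SD. Kitl 1426152_a_at divides by diet, while control replicate 2 is high through most rows of Tyr, Tyrp1, Dct, Pmel and Mlana and control replicate 4 is high in Kitl and Kit.

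Within diets, *Pmel* and *Mlana* were the closest pair of the 10 genes, and the 7 melanosome genes did not all run together. The 10 genes, each read by its probe set of highest mean, gave 45 pairs of deviations from the diet mean. The 21 pairs of the 7 melanosome genes had a median r of 0.61, with a range of -0.32 to 0.97, where 9.44% of all pairs among 18193 genes had r of 0.61 or more. Without the 2 arrays farthest from the median of the first gene of each pair, in the order of the member list, their median was 0.26. *Dct* ran with neither transporter gene, at r = -0.32 with *Slc45a2* and -0.12 with *Oca2*. The 10 pairs among *Tyr*, *Tyrp1*, *Dct*, *Pmel* and *Mlana* had r of 0.42 to 0.97 with a median of 0.81. These 5 genes were grouped after their values were seen, so a high median was built into the choice and nothing is read from it. The 25 pairs of these 5 with the other 5 genes had a median r of -0.06.

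**Figure D5:**
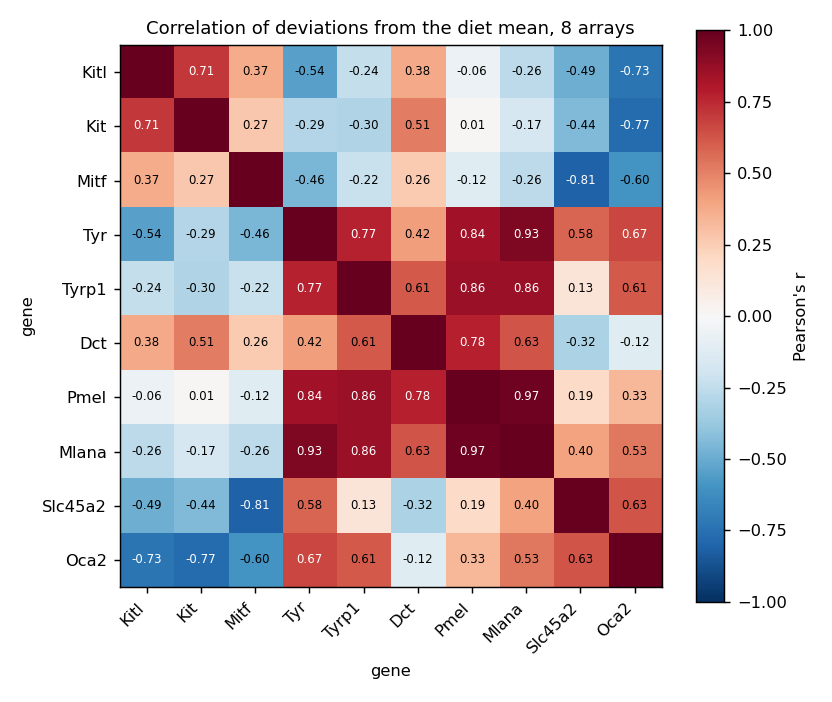
Pearson's r between genes (rows and columns) of deviations from the diet mean over 8 arrays, from blue (-1) to red (1). Tyr, Tyrp1, Dct, Pmel and Mlana have r of 0.42 to 0.97 with each other, Dct has r of -0.32 and -0.12 with Slc45a2 and Oca2, and Kitl and Kit have r of -0.54 to 0.51 with the first 5.

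*Pmel* and *Mlana* had r = 0.97 and rho = 0.90 (exact permutation p = 0.00174 for both, adjusted p = 0.0781 over 45 pairs) and r = 0.94 without control replicates 1 and 2. As 0.00174 is the smallest p that 576 pairings give, 1 pair alone could not pass at 0.05 after adjustment, and 0 of 45 did. For Pearson's r, 6 of the 45 pairs had an unadjusted exact p below 0.05, for Spearman's rho 9 did, and 0 passed after adjustment. The share of all gene pairs with such a p was not computed, so nothing is read from these counts. The 6 pairs lay among the 5 genes grouped above, which that choice after seeing the values builds in. For rho, 3 pairs lay outside these 5 genes: *Kitl* and *Oca2* (rho = -0.79, exact p = 0.0417), *Mitf* and *Oca2* (rho = -0.83, exact p = 0.0434) and *Slc45a2* and *Oca2* (rho = 0.81, exact p = 0.0365). *Tyr* and *Mlana* had r = 0.93 and rho = 0.90 (exact permutation p = 0.0122 and 0.0191, adjusted p = 0.234 and 0.226), and r = 0.92 without collagen replicate 3 and control replicate 2. *Tyrp1* and *Pmel* had r = 0.86 and rho = 0.74 (exact permutation p = 0.0156 and 0.0660, adjusted p = 0.234 and 0.247), and r = 0.60 without control replicates 2 and 3. The median over the 10 pairs was 0.59 without control replicate 2, 0.50 after quantile normalization and 0.58 after median centring.

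The 3 probe sets of *Tyrp1* ordered the arrays nearly alike, with r of 0.86 to 0.95 and rho of 0.88 to 0.90 within diets (exact permutation, adjusted p of 0.0521 to 0.0990 for r and 0.0469 for rho). Those of *Tyr* had r of 0.27 to 0.77. *Mitf* 1455214_at had r of -0.46 with *Tyr*, -0.22 with *Tyrp1* and 0.26 with *Dct*, genes that MITF is known to drive (exact permutation p of 0.198, 0.569 and 0.559, rho of -0.48, -0.33 and -0.10). Without collagen replicate 4 and control replicate 3 the r values were -0.82, -0.92 and -0.70. They hold for *Mitf* 1455214_at alone. The other *Mitf* probe set, 1422025_at, ran against it within diets (r = -0.75) and was not set against these genes, so no direction is read for *Mitf*. *Kitl* 1415855_at and *Kit* 1452514_a_at had r = 0.71 and rho = 0.67 (exact permutation p = 0.0660 and 0.109, adjusted p = 0.247 and 0.328), and r = 0.31 without collagen replicate 1 and control replicate 4.

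The melanosome score in collagen replicates 1 to 4 was -0.30, 0.26, 0.53 and 0.27, against -0.90, 1.33, -0.85 and -0.34 in control replicates 1 to 4. Control replicate 2 was the highest array and the groups overlapped, with a difference of means of 0.38, and of 1.34 without that array. Its deviations were most like those of *Nat8f4* (1436670_x_at, r = 0.984), *Crispld1* (1423352_at, 0.980), *Zfp974* (1440171_x_at, 0.977), *Nectin1* (1438111_at, 0.975) and *Ccnt2* (1427088_at, 0.965) over 8 arrays.

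Other genes of the pathway showed few differences. Of 31 genes of KIT signalling (38 listed), 15 had higher and 16 lower means on the collagen diet, with a median of -0.02 SD, and 0 had an unadjusted p below 0.05, where 4.44% of 18193 genes did. Those with the smallest p were *Spred2*, an inhibitor of RAS signalling, at -1.48 SD, *Plcg1*, a phospholipase recruited by receptor kinases, at -1.62 SD and *Dok1*, a docking protein, at -0.99 SD. Of 27 genes of melanocyte lineage and pigment control (30 listed) 12 had higher and 15 lower means, with a median of -0.03 SD and 0 at an unadjusted p below 0.05. *Tfe3*, a relative of MITF, stood at -1.78 SD, *Hgf*, a growth factor of melanocytes, at 1.36 SD and *Snai2*, a neural crest transcription factor, at -1.13 SD. Of 33 genes of melanosome formation and transport (36 listed) 18 had higher and 15 lower means, with a median of 0.15 SD. In this list 1 gene had an unadjusted p below 0.05: *Hps6*, a subunit of the BLOC-2 trafficking complex, at -2.83 SD with non-overlapping groups (adjusted p = 0.673 in limma). *Atp6ap2*, an accessory protein of the proton pump, stood at 1.09 SD and *Gpr137b* at 1.12 SD. After median centring 29 of 31, 25 of 27 and 30 of 33 genes of these lists were lower, where 91.9% of all probe sets were.

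Hair follicle markers, genes of the structure that houses melanocytes in haired mouse skin, were mostly higher on the collagen diet. Whether follicles of this hairless strain hold melanocytes was not tested. Of 23 genes 22 had higher means on the collagen diet, with a median of 1.13 SD against -0.04 SD over all genes, while quantile normalization left 16 higher with a median of 0.21 SD and median centring 17 with 0.72 SD. An unadjusted p below 0.05 was found for 7 higher genes and 1 lower gene, against 1.32% higher and 3.12% lower of all genes, and 0 passed after adjustment. The groups did not overlap in 6, against 2.81% of all genes. This list was drawn up with earlier results of these data known, so nothing is read from these counts or from its score. The inner root sheath keratins *Krt25* and *Krt73* differed by 3.07 and 2.64 SD and *Hoxc13*, a regulator of hair keratins, by -2.12 SD. The score was 0.08 to 0.99 on the collagen diet and -1.06 to -0.14 on the control diet, without overlap, and the summed level overlapped, at 181.172 to 181.191 on the collagen diet and 181.152 to 181.175 on the control diet. Within diets the score had r = -0.26 with the melanosome score and r = 0.50 with *Kitl* 1426152_a_at (exact permutation p = 0.281, rho = 0.33). For *Kitl* r was -0.19 without collagen replicate 3 and control replicate 4. The part of hair follicle content in the values of *Kitl* and of the pigment genes was not tested.

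The list scores of other cells that make KIT ligand or lie near melanocytes overlapped between diets, though not every gene in the lists did. Epidermal keratinocyte markers had 8 of 12 genes higher and a score of -0.26 to 0.61 on the collagen diet against -0.76 to 0.39 on the control diet, with *Krt2* at 1.20 SD, *Dsg1a* at 1.07 SD and *Col17a1* at 1.03 SD. After quantile normalization 10 of these 12 were higher, and after median centring 5. Dermal fibroblast and papilla markers had 9 of 14 genes higher, 9 after quantile normalization and 6 after median centring. Their scores were -0.40 to 1.08 on the collagen diet against -0.58 to 0.49 on the control diet. Among them *Corin*, a protease of the dermal papilla, differed by 2.77 SD with non-overlapping groups, *Sox18* by -1.74 SD and *Pdgfra* by -0.88 SD, and 0 passed after adjustment. In this list 1 higher and 1 lower gene had an unadjusted p below 0.05 in limma, where 4.44% of all genes did. The groups did not overlap in 1 of the 14, against 2.81% of all genes, and nothing is read from these counts. Endothelial markers had 7 of 10 genes higher, 2 after quantile normalization and 3 after median centring, with *Emcn* at 1.29 SD, *Kdr* at 0.93 SD and *Cldn5* at -0.78 SD. Schwann cell markers had 5 of 10 genes higher, 6 after quantile normalization and 1 after median centring, with *Foxd3* at 1.21 SD, *Egr2* at -1.12 SD and *Cnp* at -0.79 SD. Skeletal muscle markers had 16 of 17 genes higher, also after either scaling, with a median of 0.21 SD. *Myh4* stood at 0.65 SD, *Pvalb* at 0.45 SD and *Actn3* at 0.40 SD, and 0 of the 17 had an unadjusted p below 0.05.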

How the data were processed

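Gene expression was measured on 8 oligonucleotide arrays, 1 per skin sample, with the diet taken from each sample's title. According to the labels' protocols, 200 ng of total RNA from powdered frozen skin was copied into biotinylated RNA with a 3′ labelling kit. The authors' deposited values run from 5.34 to 14.27 and were taken as log2 values. R 2.7.2 is named in the submitters' processing notes, but the sources used here do not give how probes were summarized or arrays normalized. No depth or background came with them, so the number of arrays limits the precision.

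Of 45101 probe sets 64 controls were left out. The platform annotation, which can be old, names 1 symbol for 34945 probe sets, several for 932 and none for 9160. All 20 member probe sets matched the RefSeq gene table by Entrez ID. The diet fit covered all 45037 probe sets without a filter, using lmFit and two-sided trended eBayes of limma 3.58.1 (R 4.3.3) with Benjamini-Hochberg adjustment, and was tested on simulated data. Correlations used deviations from diet means and 576 exact pairings within diets (Python 3.11.15). For lists, a gene was read by its probe set of highest mean.

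Named are all member probe sets, up to 3 genes of each list with the smallest p, and the 5 genes most like *Kitl* 1426152_a_at and the melanosome score among probe sets above the lowest 30% by mean, clones left out. Members and lists were chosen with earlier results of these data known. At most 0.0155% of values were equal between any pair of arrays. Alternatives were filters, normalizations, variance models, array weights, a replicate block, other gene values and leaving out arrays. Leaving out the 2 arrays low in muscle genes was chosen after seeing the data.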

Additional observations from a re-analysis of the deposited data

Results flagged for a closer look

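Of 62 groups of 4 values examined, 5 had 1 array whose gap to its nearest neighbour filled most of the group's range (beyond Dixon's critical value), where chance gives about 1 in 20, or 3.1. Collagen replicate 4 was far above the other collagen-diet arrays in *Mitf* 1455214_at (gap 0.869 of the range). Control replicate 2 was far above the other control-diet arrays in *Tyr* 1456095_at (0.876). Collagen replicate 1 was far below the other collagen-diet arrays in *Mlana* 1430635_at (0.879). Control replicate 4 was far above its diet in the mast cell score (0.890), at 1.18, and far below it in the skeletal muscle score (0.913), at -1.34.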

How the results depend on the processing

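The count of probe sets with an adjusted p below 0.05 was 0 as deposited and 1 after median centring, and 0 to 1 with a single array left out (1 without collagen replicate 1). The count among the 20 member probe sets was 0 in every alternative run. *Kitl* 1426152_a_at kept its direction in all 17 alternatives that held it, between -8.42 SD (without collagen replicate 3) and -4.03 SD (median centring). As its groups do not overlap, leaving out or weighting arrays could not turn the direction. The variance models, the replicate block and the filter at 30% left the difference at -5.81 SD. The genes were chosen by this value, so nothing is read from its kept direction. The filter at 50% left this probe set out. With 1 probe set per gene *Kitl* was read by 1415855_at, at -0.64 SD. The mean of all *Kitl* probe sets differed by -2.35 SD (adjusted p = 0.858 in limma). Of 45 gene pairs 0 passed after adjustment as deposited, and 7 did after median centring, where the cause was not tested. With an array left out 0 passed as well, which says nothing about stability, since fewer pairings leave a single pair no p small enough to pass. The difference in the melanosome score, 0.38 as deposited, was 0.12 to 1.34 with a single array left out, and 0.18 and 0.16 after quantile normalization and median centring. Same-numbered collagen and control arrays deviated together by r of only -0.03 to 0.08 over all probe sets. This cannot show whether equal numbers mark paired samples, and the sample titles do not say. With the replicate number as a block, 0 probe sets passed, and *Kitl* 1426152_a_at had an adjusted p of 0.719 in limma. The spread of 4 arrays per diet and the narrow scale of the deposited values limit what can be seen.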
